A study of Homo sapiens with 16 samples.

Results

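The 9 genes described here encode core factors of nonsense-mediated mRNA decay, namely UPF1, UPF2, UPF3A, UPF3B, SMG1, SMG5, SMG6, SMG8 and SMG9. They were chosen by symbol, and all 9 were found among the 58302 gene identifiers counted in each library. Nonsense-mediated decay removes mRNAs on which translation ends too early or far from the normal 3' end of the message. UPF1, an RNA helicase, joins the terminating ribosome and is phosphorylated there by the kinase SMG1, after which the mRNA is cut or is stripped of its cap and tail. Several mRNAs of the pathway carry features that make them substrates of it, so in human cells their levels are known to rise when the pathway is weak.

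The study silenced GEMIN5, an RNA-binding protein of the SMN complex that also acts on translation, in HEK293, an established human embryonic kidney cell line. The siRNAG5 cells were transfected with 100 nM of a small interfering RNA against GEMIN5. The Ctrl cells are called untreated in the sample labels, whereas the protocol names a control siRNA, and it was not settled here which applies. For each treatment, 4 independent cultures gave a cytoplasmic lysate (Input) and pooled polysomal gradient fractions (Polysome), which makes 16 libraries of polyadenylated RNA, 4 per group. A level is given in CPM, the reads of a gene scaled to a fixed total of reads on genes per library, with the totals adjusted across the 16 libraries by the trimmed mean of M values (TMM). In bulk RNA of this kind, a change per cell and a change in which cells gave the RNA cannot be told apart.

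Reads on genes numbered 11145324 to 24511299 per library, and the Input siRNAG5 libraries (18411789 or more) were deeper than the Input Ctrl libraries (18053614 or fewer). GEMIN5 was at 15.9 to 20.7 CPM in Input Ctrl against 6.22 to 7.46 in Input siRNAG5, a log2 fold change (log2 FC) of -1.40 ± 0.12 (SE, n = 4 per group; edgeR adjusted p = 3.11e-10). In Polysome it fell by 1.44 on the log2 scale (SE 0.21, adjusted p = 0.00477). All 6 markers of HEK293 cells had reads in every group, at 513 to 1676 CPM in sum. Of 12 liver genes, 12 had reads in Input Ctrl and 7 in Input siRNAG5. Their summed level was 2.59, 1.12, 143 and 125 CPM in the 4 Input Ctrl libraries, 77.1 to 159 in Polysome Ctrl, and 0.371 to 1.26 in all 8 siRNAG5 libraries. Liver reads thus marked 2 of 4 Input Ctrl libraries and all 4 of Polysome Ctrl. At 0 throughout Input siRNAG5 were APOB, FGA, FGB, SERPINA1 and HP, and at 0 throughout Polysome siRNAG5 were APOB, FGA, SERPINA1, TF and TTR. Blood and brain genes, 4 of each, summed to at most 2.73 and 3.64 CPM in any library. On the third principal component (7.97% of the variance of 14958 genes), Polysome Ctrl 1, siRNAG5 1 and siRNAG5 4 scored 36.3 to 40.4, and the other 5 Polysome libraries scored -27.5 to 3.49.

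The sequences that bear on these comparisons are the siRNA, the matches to it in the decay factor mRNAs, and the upstream start codons of these mRNAs. An siRNA guide strand can also act on mRNAs that match only its seed (bases 2 to 8). In the guide strand of the GEMIN5 siRNA, read as the complement of the sense strand in the labels, the seed is in capitals. The seed match on an mRNA is AAGAGAA, searched on the mRNA strand of the canonical transcripts of GENCODE v44 (GRCh38), and it is in capitals in the next 4 windows of 19 bases, the length of the paired guide.
guide strand: uUUCUCUUcuugauuaagg
GEMIN5, coding, exon 18, chr5:154904608-154904626, minus strand: ccttaatcaagAAGAGAAa
UPF1, coding, exon 7, chr19:18853021-18853039, plus strand: gccttaacaagAAGAGAAt
UPF3B, coding, exon 7, chrX:119841160-119841178, minus strand: atggaaagaagAAGAGAAa
SMG5, 3' UTR, exon 22, chr1:156249756-156249774, minus strand: gggatgccaggAAGAGAAg

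The GEMIN5 window holds all 19 bases of the target, and it was the only such window among 12433 tested protein-coding genes. The UPF1 window shares 14 of 19 bases with the target, and 2.57% of those genes have a seed match with at least 14. UPF3B has 8 seed matches in its coding sequence, and 0.265% of genes have 8 or more. The UPF3B window shown is the one with most shared bases (13 of 19). SMG5 alone of the 9 has a match in the 3' UTR, where matches are most often active, against 25.2% of genes. In the coding sequence 7 of 9 have a match, against 30.3% of genes, and SMG5 and SMG9 have none there. These shares were not adjusted for length, and a longer sequence has more room for a match. The median canonical transcript measured 5168 bases in the 9 and 3379 in the 12433 genes. A match is a description of the letters and not evidence of an effect.

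An upstream start codon draws ribosomes into a short reading frame whose stop codon can mark the mRNA for decay. Of the 9 canonical transcripts, 4 have an ATG before the main start (41.2% of genes), and in 2 of them, SMG5 and SMG9, that frame closes before the main start (34.8% of genes). The ATG is in capitals in these windows of the 5' UTR.
SMG5, exon 1, chr1:156282787-156282813, minus strand: cgcctcacagcgATGgcggccgagcag
SMG9, exon 1, chr19:43754918-43754944, minus strand: agccctcagcgcATGcgcaggacgagt
UPF2, exon 1, chr10:12042760-12042786, minus strand: aacccggggctaATGttgacaacaggc
SMG1, exon 1, chr16:18926047-18926073, minus strand: cggcgcttggccATGtcgtgtcgggga

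A long 3' UTR is the other feature through which these mRNAs are known to become substrates. The 3' UTR measured 4709 bases in SMG1, 3613 in SMG9, 1713 in UPF1, 1649 in SMG6, 1363 in SMG5, 1276 in UPF2, 900 in UPF3A, 856 in UPF3B and 228 in SMG8. It exceeded 1000 bases in 6 of 9, a share near that of all tested protein-coding genes (59.0%). The median was 1363 bases in the 9 and 1348 in those genes. An exon junction more than 50 bases after the stop codon, the classic mark of a substrate, was in none of the 9 and in 0.201% of genes. Only UPF1 has a junction after its stop codon, at 3 bases. An annotated transcript form marked as a decay target was listed for UPF1, SMG1, SMG8 and SMG9, that is 4 of 9, against 47.1% of genes. None of the 9 starts with 5 or more pyrimidines, as mRNAs of ribosomal proteins do, against 5.52% of genes.

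The UPF genes lie at chr19:18831959-18868230 on the plus strand (UPF1), chr10:11920022-12043170 on the minus strand (UPF2), chr13:114281601-114305817 on the plus strand (UPF3A) and chrX:119834022-119852998 on the minus strand (UPF3B). The SMG genes lie at chr16:18804860-18926408 on the minus strand (SMG1), chr1:156249224-156282825 on the minus strand (SMG5), chr17:2059839-2303785 on the minus strand (SMG6), chr17:59209400-59215239 on the plus strand (SMG8) and chr19:43727983-43754962 on the minus strand (SMG9).

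Levels differed widely between the 9 genes. Per kilobase of merged exon length, UPF3B stood highest in Input Ctrl at 15.2 ± 1.23 CPM per kb (SD, n = 4). It was followed by SMG5 (3.69 ± 0.237), SMG8 (3.62 ± 0.479), SMG9 (2.23 ± 0.296), UPF3A (1.67 ± 0.132), UPF1 (1.66 ± 0.139), UPF2 (1.13 ± 0.0749), SMG6 (0.230 ± 0.0450) and SMG1 (0.0943 ± 0.0389). Of these neighbours, SMG5 with SMG8 and UPF3A with UPF1 overlapped in their libraries, and the other 6 pairs did not. The order depends on the divisor, which spans the exons of all annotated forms of a gene. It was 5755 bases for UPF3A, 25161 for SMG1 and 3744 for SMG8, against 2370, 16062 and 3221 in their canonical transcripts. SMG1 also has near-identical copies that can take its reads. UPF3B was first, SMG5 second, SMG6 eighth and SMG1 last in all 4 groups. SMG9 was the fourth in Input Ctrl and the third in Input siRNAG5, and it was the seventh and the sixth in Polysome Ctrl and Polysome siRNAG5, where it overlapped with UPF2, the gene next above it. The reads behind these values were few for SMG1 (15 to 107 per library) and SMG6 (24 to 131), and at most 1345 for UPF3B.

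**Figure D1:**
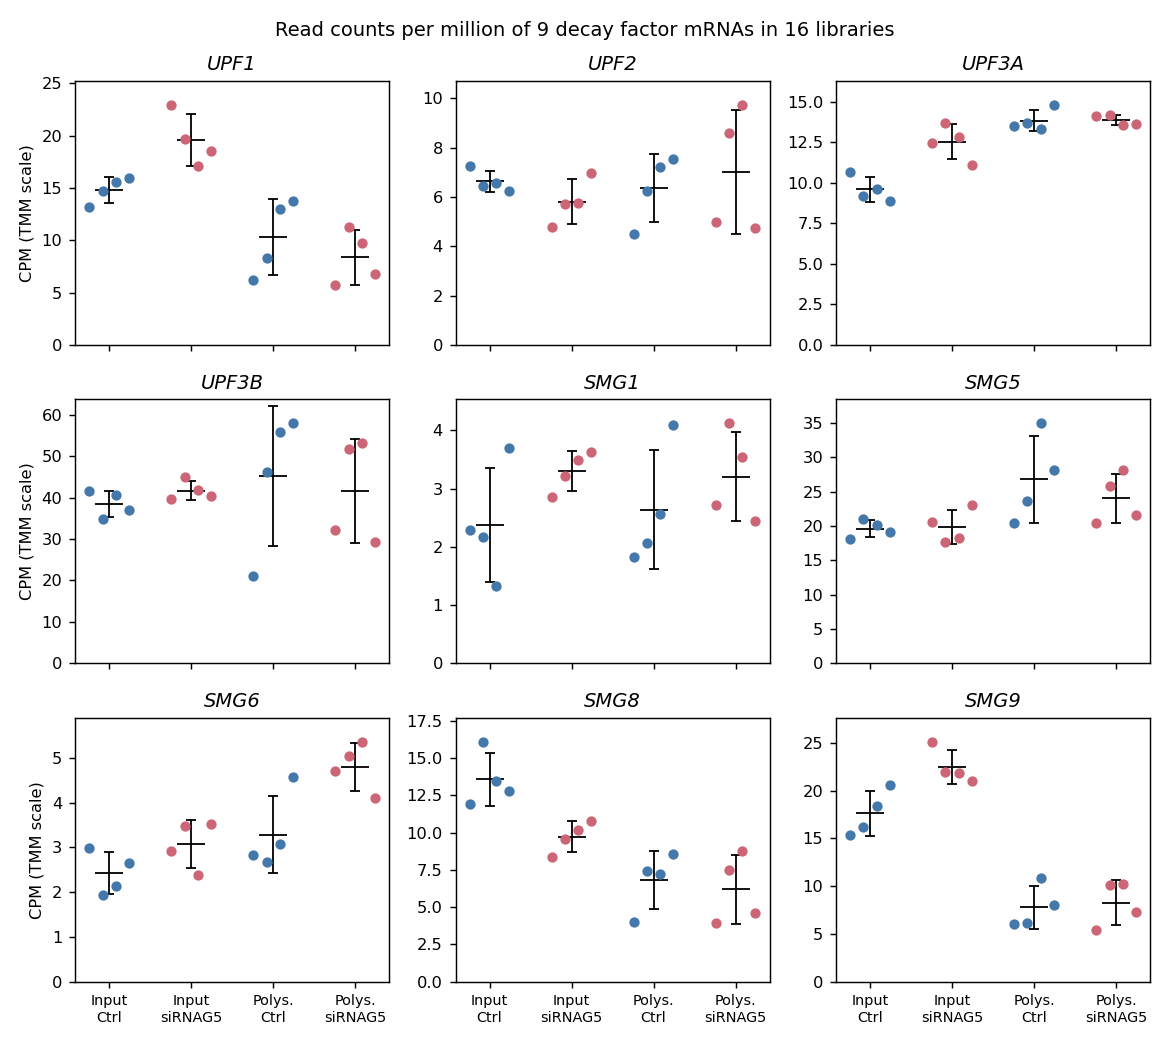
Each panel plots 1 gene, with CPM from 0 on the vertical axis and the 4 groups on the horizontal axis. Points are libraries in the order of replicates 1 to 4 (blue Ctrl, red siRNAG5), and black bars give the mean ± SD of 4. In Input, the siRNAG5 points of UPF1, UPF3A and SMG9 all lie above those of Ctrl and the points of SMG8 all lie below, and in Polysome no panel separates the treatments.

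In Input RNA, GEMIN5 silencing was compared with Ctrl to ask how the mRNA pool changed. The mRNAs of UPF1, UPF3A and SMG9 rose by about 1.3-fold each, and that of SMG8 fell to 0.723 of Ctrl. The other 5 did not pass the test. A gene passed at a Benjamini-Hochberg adjusted p under 0.05 over all genes in edgeR's quasi-likelihood test. Thus 4 of 9 passed, against 37.0% of the 14134 genes tested, a share near that of all genes and so no result about these 9 genes as a group. Groups did not overlap in 4 of 9, against 34.2% of all genes. None of the 9 was called when a log2 FC beyond 0.5 was required in addition, against 16.5% of all genes. The median log2 FC was 0.36 over the 9 and 0.04 over all genes.

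UPF1, the helicase at the centre of the pathway, was at 13.1, 14.7, 15.6 and 15.9 CPM in Input Ctrl and at 22.9, 19.7, 17.1 and 18.5 in Input siRNAG5. All 4 siRNAG5 libraries stood above all 4 Ctrl libraries, by a log2 FC of 0.40 ± 0.11 (SE, n = 4 per group; adjusted p = 0.00364, edgeR). UPF2, which bridges UPF1 and the UPF3 proteins, was at 7.26, 6.44, 6.58 and 6.25 CPM in Ctrl and at 4.80, 5.70, 5.78 and 7.00 in siRNAG5. These groups overlapped, and the log2 FC was -0.17 (95% interval -0.46 to 0.13).

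UPF3A and UPF3B are paralogs that can bind the exon junction complex and tie it to UPF2. UPF3A was at 10.6, 9.21, 9.60 and 8.91 CPM in Input Ctrl and at 12.5, 13.7, 12.8 and 11.1 in Input siRNAG5. It rose without overlap (log2 FC 0.40 ± 0.11 SE, n = 4 per group; adjusted p = 0.00665, edgeR). Its 3 annotated pseudogenes held 15 reads in all, against 3347 on UPF3A itself. UPF3B was at 34.8 to 41.5 CPM in Ctrl and at 39.8 to 45.0 in siRNAG5, which overlapped, with a log2 FC of 0.13 (95% interval -0.03 to 0.30). Whether the changes of the 2 paralogs differ from each other was not tested.

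SMG1 is the kinase that phosphorylates UPF1, and SMG8 and SMG9 are its regulatory partners. SMG1 was at 2.29, 2.17, 1.33 and 3.70 CPM in Input Ctrl and at 2.86, 3.22, 3.49 and 3.63 in siRNAG5. The highest Ctrl library stood above all siRNAG5 libraries, and the log2 FC of 0.51 had a 95% interval of 0.05 to 0.96 but did not pass (adjusted p = 0.0724, edgeR). Without Input Ctrl 4 it was 0.78 and passed (adjusted p = 0.0082, edgeR), and without Input siRNAG5 1 it was 0.57 and passed as well (0.041). SMG1 shares near-identical sequence with 7 pseudogenes, whose reads made up 50.0 to 69.4% of all reads on SMG1 and its copies in Input Ctrl and 39.1 to 52.9% in Input siRNAG5. Its value is therefore uncertain, since reads can be shared with the copies. A rise of SMG1 alone would also lower the share of the copies, and their part in the result was not tested.

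SMG8 was at 11.9, 16.1, 13.4 and 12.8 CPM in Input Ctrl and at 8.39, 9.60, 10.2 and 10.8 in Input siRNAG5. It is the 1 member that passed as lower, by 0.47 on the log2 scale (SE 0.12, n = 4 per group; adjusted p = 0.00265, edgeR), and its groups did not overlap. About 11.3% of the exonic bases of SMG8 also lie in another gene on the same strand, and the part of this overlap was not tested. SMG9 was at 15.3, 16.2, 18.4 and 20.6 CPM in Ctrl and at 25.1, 21.9, 21.8 and 21.0 in siRNAG5. It rose by a log2 FC of 0.36 ± 0.10 (SE, n = 4 per group; adjusted p = 0.00611, edgeR), with the lowest siRNAG5 library just above the highest Ctrl library. The 2 partners of SMG1 thus changed in opposite directions in Input.

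SMG6, the endonuclease that cuts the mRNA near the stop codon, was at 2.98, 1.95, 2.13 and 2.65 CPM in Ctrl and at 2.93, 3.49, 2.39 and 3.52 in siRNAG5. The groups overlapped and the log2 FC of 0.37 (95% interval -0.05 to 0.79) did not pass. SMG5, which helps to bring in the enzymes of cap and tail removal, was at 18.1, 21.0, 20.1 and 19.1 CPM in Ctrl and at 20.5, 17.6, 18.3 and 23.0 in siRNAG5. Its log2 FC of 0.03 had a 95% interval of -0.18 to 0.24.

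Other properties of the libraries moved with these values. Longer transcripts were higher in Input siRNAG5 in general, with a median log2 FC of -0.13 over the shortest of 4 equal length classes of protein-coding transcripts and 0.15 over the longest. The canonical transcripts of UPF1 (5321 bases), SMG9 (5491), SMG6 (5974) and SMG1 (16062) belong to the longest class. With offsets for transcript length and GC content, the log2 FC was 0.23 for UPF1 (adjusted p = 0.049, edgeR), 0.26 for SMG9 (0.0213), 0.43 for UPF3A (0.0017) and -0.48 for SMG8 (0.000929). UPF3B then passed too, at 0.19 (0.0353). Without the 2 Input Ctrl libraries that held liver reads, 3 of the 4 passed at values of the same direction, and UPF3A (log2 FC 0.35) had an adjusted p of 0.0837. When all 16 libraries shared 1 fit, with 1 estimate of the spread for both fractions, UPF3A alone passed in Input (0.38, adjusted p = 0.0222, edgeR). Of all 14958 genes in that fit, 16.3% passed in Input.

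**Figure D2:**
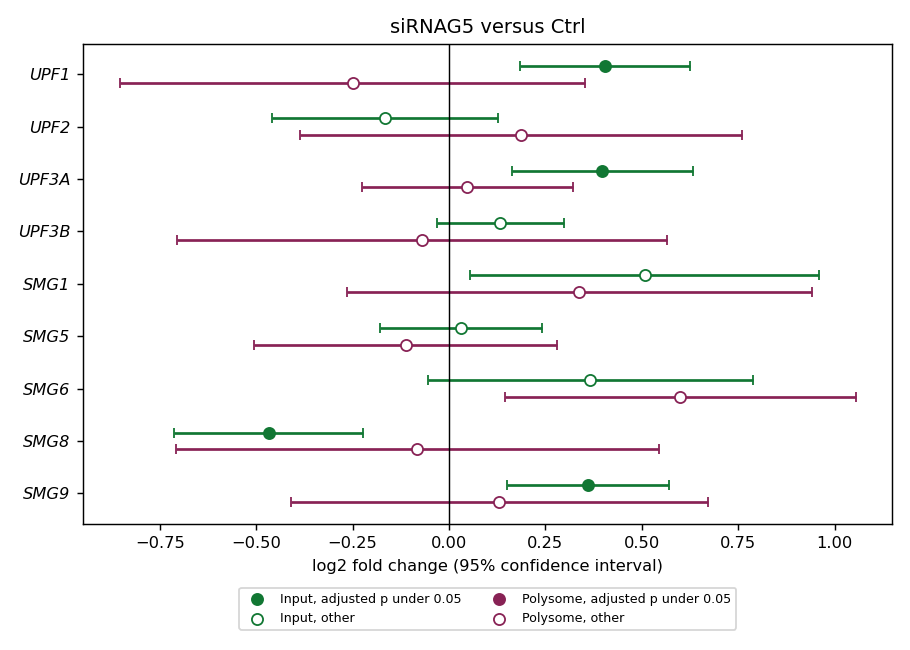
The horizontal axis gives the log2 FC of siRNAG5 against Ctrl with its 95% confidence interval, for each gene in Input (green) and in Polysome (purple), and filled points passed at an adjusted p under 0.05. Filled points are seen only in Input, for UPF1, UPF3A, SMG8 and SMG9, and the Polysome interval is the wider for all 9 genes.

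In Polysome RNA, the same treatments were compared to ask which mRNAs changed on translating ribosomes. None of the 9 passed in edgeR, against 8.11% of the 14420 genes tested, and 1 of 9 (SMG6) had an unadjusted p under 0.05, against 27.7% of genes. The share of all genes moved with single libraries, from 1170 genes to 189 without Polysome Ctrl 2, to 512 to 581 without Polysome Ctrl 4, siRNAG5 1, siRNAG5 2 or siRNAG5 3, and to 1540 without siRNAG5 4. DESeq2 passed none of the 9 either, against 8.23% of all genes in that fit. Groups without overlap were seen in 0 of 9, against 18.3% of all genes, and 0 of 9 were called with a log2 FC beyond 0.5, against 7.95%. The median log2 FC was 0.05 over the 9 and 0.03 over all genes.

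SMG6 had the largest value, at 2.83, 2.68, 3.07 and 4.56 CPM in Polysome Ctrl and 4.71, 5.04, 5.36 and 4.10 in Polysome siRNAG5. Polysome Ctrl 4 stood above siRNAG5 4, so the groups overlapped, and the log2 FC of 0.60 (95% interval 0.14 to 1.05) missed the threshold (adjusted p = 0.0912, edgeR). It passed in the fit of all 16 libraries (0.55, adjusted p = 0.0451). About 24.7% of the exonic bases of SMG6 lie opposite exons of other genes, mostly of HIC1, which had 0 to 12 reads per library, and the strand setting of the counting is not given in the sources used here.

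UPF1 was at 6.16, 8.31, 12.9 and 13.8 CPM in Polysome Ctrl and at 5.69, 11.3, 9.73 and 6.73 in siRNAG5. The spread within each group exceeded the difference, and the interval of the log2 FC was -0.85 to 0.35. UPF3A was the least variable, at 13.3 to 14.8 CPM in Ctrl and 13.6 to 14.2 in siRNAG5, and its interval was -0.23 to 0.32. The other 6 had log2 FCs between -0.11 (SMG5) and 0.34 (SMG1), and each interval held 0.

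Within Polysome, part of the spread lay along the set of libraries that stood apart. Polysome Ctrl 1, siRNAG5 1 and siRNAG5 4 were the 3 lowest of the 8 libraries for UPF1, UPF2, UPF3B, SMG5 and SMG8, that is 5 of 9, against 13.7% of the genes tested. They were the 3 highest for none of the 9, a count without a share of all genes beside it, so nothing is read from it. UPF3B was at 21.0, 32.1 and 29.4 CPM in these 3 libraries and at 46.1 to 57.9 in the other 5. UPF2 was at 4.50, 4.97 and 4.75 CPM in them and at 6.25 to 9.73 in the rest. SMG8 was at 4.00, 3.95 and 4.61 CPM against 7.26 to 8.78. This contrast crosses the treatments, with 1 library of Ctrl and 2 of siRNAG5 in the low set, and it was chosen from all genes of the same libraries, so it is given as a description with no test. With these 3 set aside, again none of the 9 passed in Polysome, against 23.2% of the 14717 genes tested in that fit.

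**Figure D3:**
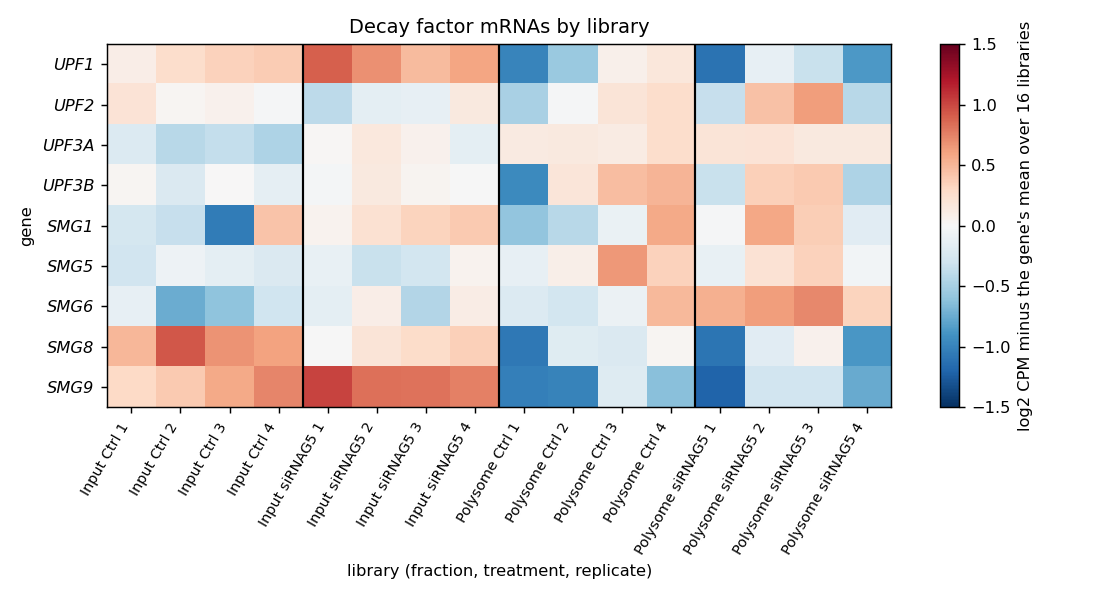
Rows are the 9 genes and columns the 16 libraries by fraction, treatment and replicate, and colour gives log2 CPM minus the mean of the gene over the 16 libraries (red above, blue below). Polysome Ctrl 1, siRNAG5 1 and siRNAG5 4 are darker blue than the other Polysome libraries for UPF1, UPF2, UPF3B and SMG8, and UPF3A shows nearly the same colour in all 8.

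Polysome was next compared with Input within Ctrl cells, where a lower value means a smaller part of the reads in Polysome than in the lysate. SMG8, SMG9 and UPF1 were lower in Polysome, and UPF3A and SMG5 were higher. In all 5 of 9 passed, against 47.4% of the 13666 genes tested, again near the share of all genes. The groups did not overlap in 3 of 9, against 44.4%, and 4 of 9 were called with a log2 FC beyond 0.5, against 39.6%.

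SMG9 was at 6.08, 6.18, 10.8 and 8.03 CPM in Polysome Ctrl, all below its Input Ctrl libraries (15.3 to 20.6), a log2 FC of -1.16 ± 0.18 (SE, n = 4 per group; adjusted p = 7.81e-05, edgeR). SMG8 was at 4.00, 7.42, 7.26 and 8.58 CPM against 11.9 to 16.1 in Input, a log2 FC of -0.98 ± 0.19 (adjusted p = 0.000559). UPF3A was higher in Polysome (13.3 to 14.8 CPM) than in Input (8.91 to 10.6), by 0.54 ± 0.13 (adjusted p = 0.00297). SMG5 was at 20.4, 23.6, 34.9 and 28.2 CPM in Polysome and at 18.1 to 21.0 in Input, and passed at 0.46 ± 0.15 (adjusted p = 0.0201) with overlapping groups.

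UPF1 passed narrowly in Ctrl (log2 FC -0.51 ± 0.20 SE, n = 4 per group; adjusted p = 0.047, edgeR). The call was lost on leaving out any 1 of 7 of the 8 libraries, all 4 of Input Ctrl and Polysome Ctrl 1, 2 and 3, and without Polysome Ctrl 1 the log2 FC was -0.34 (adjusted p = 0.0735). The call of SMG5 was lost without Input Ctrl 1 (0.42), Input Ctrl 4 (0.45) or Polysome Ctrl 3 (0.33), and with the length and GC offsets (0.21, adjusted p = 0.176). Without Polysome Ctrl 1, UPF3B passed at a log2 FC of 0.48 (adjusted p = 0.000826, edgeR). With the Polysome Ctrl libraries set only against Input Ctrl 3 and 4, which also held liver reads, UPF3A, SMG8 and SMG9 passed and UPF1 (-0.62, adjusted p = 0.1) and SMG5 (0.44, 0.139) did not.

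In siRNAG5 cells the same comparison of fractions gave 3 of 9 that passed, against 52.2% of the 14795 genes tested. The groups did not overlap in 3 of 9, against 50.4%, and all 3 were called with a log2 FC beyond 0.5, against 45.1%. SMG9 was at 5.38, 10.2, 10.2 and 7.33 CPM in Polysome siRNAG5 and at 21.0 to 25.1 in Input, a log2 FC of -1.35 ± 0.19 (SE, n = 4 per group; adjusted p = 0.000125, edgeR). UPF1 was at 5.69 to 11.3 CPM in Polysome and at 17.1 to 22.9 in Input, a log2 FC of -1.13 ± 0.21 (adjusted p = 0.000771). SMG6 was higher in Polysome, at 4.10 to 5.36 CPM against 2.39 to 3.52, by 0.73 ± 0.19 (adjusted p = 0.00615). These 3 passed in each of the 8 fits that left out 1 library.

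SMG8 missed the threshold here (log2 FC -0.55, 95% interval -1.07 to -0.03, adjusted p = 0.0696, edgeR), and so did SMG5 (0.36, 95% interval 0.04 to 0.68, adjusted p = 0.0556). UPF3A was at 13.6 to 14.2 CPM in Polysome and 11.1 to 13.7 in Input, with an interval of -0.02 to 0.49. SMG8 was near 0 without the Polysome libraries that stood apart (log2 FC -0.08), while UPF2 (0.82), UPF3A (0.33), UPF3B (0.51) and SMG5 (0.62) then passed together with UPF1, SMG6 and SMG9, which makes 7 of 9, against 66.6% of all genes in that fit. SMG8 passed with the length and GC offsets (-0.72), in the fit of all 16 libraries (-0.64), and without Polysome siRNAG5 2 (-0.66) or siRNAG5 3 (-0.77). SMG5 passed without Input siRNAG5 4 (0.44), Polysome siRNAG5 1 (0.44) or Polysome siRNAG5 4 (0.44).

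Transcript length moved with the fractions as well. In Ctrl the median log2 FC of Polysome against Input was -0.22 over the shortest length class and 0.36 over the longest, and in siRNAG5 it was -0.30 and 0.45. UPF1 and SMG9, in the longest class, were lower in Polysome, and with the length and GC offsets their log2 FCs were -0.81 and -1.49 in Ctrl and -1.43 and -1.74 in siRNAG5. SMG6 was at 0.34 in siRNAG5 with these offsets and did not pass (adjusted p = 0.0724, edgeR). UPF2 passed with them in Ctrl (-0.39, adjusted p = 0.0345) and UPF3A in siRNAG5 (0.29, adjusted p = 0.032).

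**Figure D4:**
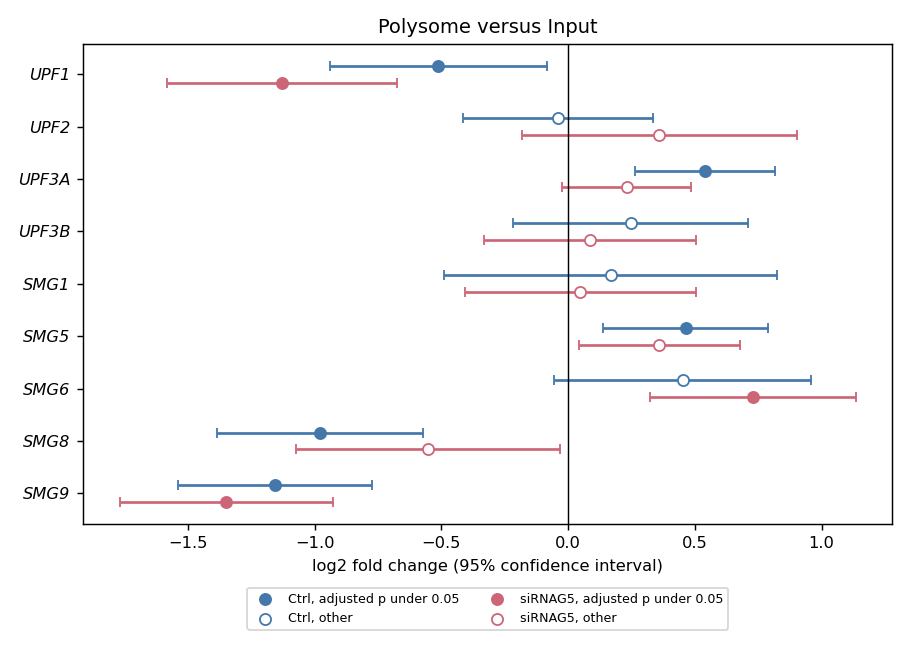
The horizontal axis gives the log2 FC of Polysome against Input with its 95% confidence interval, for each gene in Ctrl (blue) and siRNAG5 (red), and filled points passed at an adjusted p under 0.05. SMG9 and UPF1 lie below 0 with filled points in both treatments, SMG8, UPF3A and SMG5 have filled points for Ctrl alone, and SMG6 has one for siRNAG5 alone.

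Whether the change in Polysome differed from the change in Input was tested as an interaction over the 16 libraries. None of the 9 and none of the 14958 genes tested passed in edgeR, while 2 of 9 and 1089 genes (7.28%) had an unadjusted p under 0.05, and DESeq2 passed 31 genes, none of the 9 among them. For UPF1 the log2 FC in Polysome minus that in Input was -0.69 (95% interval -1.35 to -0.04, adjusted p = 0.642, edgeR). For UPF3A this difference was -0.38 (95% interval -0.70 to -0.06, adjusted p = 0.556). For SMG6, SMG8 and UPF2 the differences were above 0 (0.20, 0.35 and 0.32), with intervals that held 0. The 4 calls in Input are therefore not shown to differ from Polysome.

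The other genes of the pathway were described from lists. These were chosen with earlier results of these data known, so their counts are descriptions with no test. Over all genes, 17.9% passed as higher and 19.1% as lower in Input siRNAG5, and 4.02% and 4.09% did in Polysome, and the counts of each list are read against these shares. Of 7 other decay factors, 2 were higher and 2 lower in Input siRNAG5, against 37.0% of all genes in either direction, and the median log2 FC was -0.08. NBAS, which also acts in transport from the Golgi to the endoplasmic reticulum, rose by 0.96 ± 0.12 (SE, n = 4 per group; adjusted p = 1.69e-07, edgeR), from 7.18 ± 0.208 to 13.9 ± 1.25 CPM (SD). CTIF, a factor of translation on newly exported mRNAs, rose in Input (0.54, adjusted p = 0.035) and in Polysome (0.70, adjusted p = 0.0434). Both calls were lost in 7 of the 8 fits that left out 1 library. RUVBL1, an ATPase of the SMG1 complex and of chromatin remodelling, fell by 0.49 in Input (adjusted p = 2.95e-07), and DHX34, a helicase, fell by 0.31 (0.0136). The call of DHX34 was lost without Input Ctrl 3 and 4 (-0.30, adjusted p = 0.078, edgeR) and in the fit of all 16 libraries (0.268). It was also lost without Input Ctrl 2 alone (0.070) or Input siRNAG5 2 alone (0.052).

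The exon junction complex is deposited on spliced mRNAs and marks, for the decay machinery, where introns were. Of 7 of its genes, 6 fell in Input, against 19.1% of all genes, and none rose. The median log2 FC was -0.31 against 0.04 over all genes, in a list chosen with earlier results of these data known. RBM8A fell by 0.54 ± 0.07 (SE, n = 4 per group; adjusted p = 2.1e-07, edgeR), from 713 ± 59.6 to 487 ± 29.7 CPM (SD). EIF4A3, the RNA helicase that anchors the complex, fell by 0.32. MAGOHB fell by 0.46 and MAGOH by 0.31, and as near-identical paralogs they may share reads. In the fit of all 16 libraries the Input calls of EIF4A3 (adjusted p = 0.484, edgeR) and MAGOH (0.0645) were lost, and with the length and GC offsets MAGOH was at -0.20. In Polysome the median was -0.42, and RBM8A alone passed (-0.72, adjusted p = 0.0476, edgeR), a call lost in 6 of the 8 fits that left out 1 library.

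Among termination factors, ETF1, which recognises stop codons, fell by 0.39 in Input (adjusted p = 5.51e-05, edgeR) and GSPT1, its GTPase partner, fell by 0.21 (0.0186, lost without Input Ctrl 1 at 0.0585 and in the fit of all 16 libraries at 0.596), while GSPT2 did not pass, and none of the 2 tested in Polysome passed. The nuclear cap-binding genes NCBP1 (-0.22) and NCBP2 (-0.20) passed narrowly in Input (adjusted p = 0.0474 and 0.0415, edgeR), and these calls were lost in 5 and 6 of the 8 fits that left out 1 library. Of 3 genes whose products counter the pathway, PABPC1, the cytoplasmic poly(A)-binding protein, rose by 0.40 in Input (adjusted p = 9.28e-06), and PTBP1 (-0.30) and HNRNPL (-0.37), both splicing regulators, fell, and in the fit of all 16 libraries these 2 decreases did not pass (adjusted p = 0.461 and 0.279, edgeR). Neither list had a gene that passed in Polysome. Of 8 genes of general mRNA degradation, 1 rose in Input, the decapping enzyme DCP2 (0.37), and 2 fell, LSM1 (-0.43) and the deadenylase CNOT7 (-0.39), which makes 3 of 8 against 37.0% of all genes. The calls of DCP2 (adjusted p = 0.114, edgeR) and LSM1 (0.0512) were lost in the fit of all 16 libraries, and that of DCP2 also without Input Ctrl 3 and 4 (0.0818). None of the 8 passed in Polysome.

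Transcripts known as substrates of the pathway were listed as well, with results of these data in view. In Input 7 of 12 rose and 1 fell, against 17.9% and 19.1% of all genes, with a median log2 FC of 0.34 against 0.04 over all genes. DDIT3 rose from 15.8 ± 4.57 to 40.2 ± 5.35 CPM (SD, n = 4), a log2 FC of 1.37 ± 0.14 (SE; adjusted p = 5.56e-09, edgeR). GAS5, a host of small nucleolar RNAs, rose by 1.08 ± 0.08 (adjusted p = 1.39e-11), ATF3 by 0.96 ± 0.19 and GADD45A by 0.87 ± 0.10. The Input groups of ATF3 overlapped, at 18.2 to 50.0 CPM in Ctrl and 49.5 to 99.9 in siRNAG5. In Polysome 4 of 12 rose and 1 fell, against 4.02% and 4.09%, with a median of 0.10. There DDIT3 (1.16), ATF3 (0.99) and GADD45A (0.76) passed, and GAS5 (0.51, adjusted p = 0.287) did not. Without Polysome Ctrl 2 none of these 3 calls remained, with adjusted p-values of 0.0827, 0.104 and 0.0664 (edgeR). Of the 8 fits that left out 1 library, the call of ATF3 was lost in 6, that of DDIT3 in 3 and that of GADD45A in 1. The other gene that rose in Polysome was CDKN1A (0.61) and the gene that fell in both fractions was TBL2 (-0.39 and -0.56), both named after their values were seen. DDIT3, ATF3 and GADD45A are also induced by cellular stress, apart from decay.

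**Figure D5:**
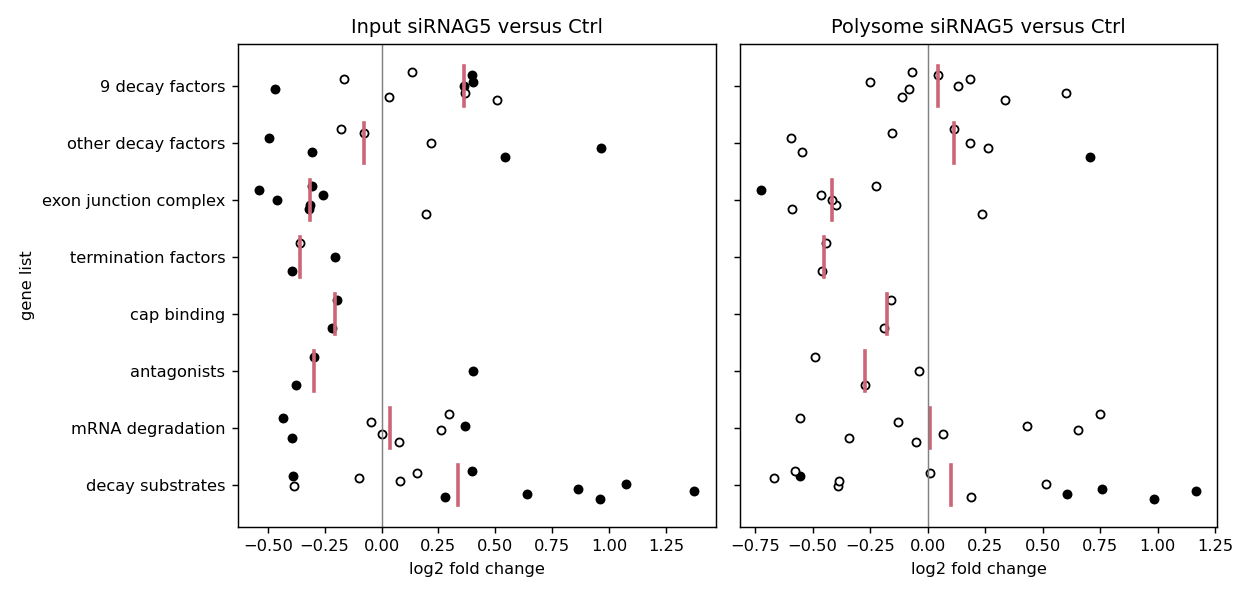
Each row is a gene list and each point a gene, with the log2 FC of siRNAG5 against Ctrl on the horizontal axis in Input (left) and Polysome (right). Filled points passed at an adjusted p under 0.05, and red lines are medians. In Input these lie below 0 for the exon junction complex (-0.31), termination factors (-0.36), antagonists (-0.30), cap binding (-0.21) and other decay factors (-0.08). They lie above 0 for the 9 decay factors (0.36), decay substrates (0.34) and mRNA degradation (0.04). The lists were chosen with earlier results of these data known.

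The 9 mRNAs did not share a common course over the 16 libraries. Correlations of log2 CPM between pairs of them ran from 0.93 for UPF1 with SMG9 to -0.73 for UPF3A with SMG8 (Pearson's r, n = 16 libraries, which share fractions, treatments and depth). UPF1, SMG8 and SMG9 were the members that stood lower in Polysome, and UPF1 with SMG8 (0.79) and SMG8 with SMG9 (0.77) were the next highest of the 36 pairs but for UPF2 with UPF3B (0.78). SMG5 with SMG9 (-0.40) and SMG6 with SMG8 (-0.51) ran the other way. Among the genes whose log2 CPM followed the mean of the 9 most closely, of 14949 others, were RACGAP1 (r = 0.97, n = 16), TAX1BP1 (0.95), KDM4B (0.95) and PLCB3 (0.95). That mean, centred per gene, was lowest in the Polysome libraries that stood apart, Ctrl 1 (-0.585), siRNAG5 1 (-0.386) and siRNAG5 4 (-0.342). Such likeness can therefore follow this set of libraries and is no link to decay.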

How the data were processed

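RNA from lysates and polysomes of HEK293 cells was sequenced after a stranded polyadenylated library preparation. The authors aligned reads to GRCh38 with STAR 2.5.3a, per the labels, and deposited read counts per Ensembl gene, whole numbers without normalization, 1 column per library. Rows of reads that aligned to several places (4.88 to 42.4% of a library, highest in Polysome), to no gene (0.667 to 1.33%) or to several genes (4.14 to 7.41%) entered neither library sizes nor tests. Replicates were independent cultures per the study's methods.

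Symbols were matched for 57532 of 58302 identifiers, and sequences and coordinates come from GENCODE v44 of the same build, a later annotation. Each comparison was fitted on all genes of its own groups in edgeR 4.0.16 (quasi-likelihood test, filterByExpr, TMM; R 4.3.3), and all 9 members passed the filter in each. Standard errors are the log2 FC divided by the square root of F. The 9 members and the 7 lists (42 genes) were chosen with earlier results of these data known. Members were named in every comparison, and of each list up to 4 genes with the largest change among those that passed. A few results that the naming rule covers are not reported here. Alternatives were DESeq2 1.42.0, RLE size factors, no filter, length and GC offsets, a replicate block, 1 fit of all 16 libraries, and libraries left out. Setting aside Input Ctrl 3 and 4, or 1 and 2, was added after seeing the data. The strand setting of the counting is not given in the sources used here. Scripts were tested on simulated counts. Levels were summarised with pandas 2.3.3 and numpy 2.4.6, and plotted with matplotlib 3.10.9 (Python 3.11.15).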

Additional observations from a re-analysis of the deposited data

How the results depend on the processing

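Counts are few for SMG1 and SMG6, liver reads are in 2 Input Ctrl and 4 Polysome Ctrl libraries, and the 3 Polysome libraries that stand apart cross the treatments. Of the 9 genes, 4 passed in Input (37.0% of all genes), and 1 did in 1 fit of all 16 libraries (16.3%). None was called with a log2 FC beyond 0.5 required (16.5%). UPF3A was lost without Input Ctrl 3 and 4, and UPF1 with replicate block and offsets together (0.23, adjusted p = 0.0649, edgeR). In Polysome 0 passed (8.11%), and 1 in the fit of 16 (23.3%). Between fractions in Ctrl 5 passed (47.4%), and 3 to 5 with 1 library left out (40.0 to 53.8%). With Input Ctrl 1 and 2 set aside 3 passed (30.7%). In siRNAG5 3 passed (52.2% of all genes), 5 without the filter (29.4%) and 5 with length and GC offsets (55.3%). There 7 passed with 3 Polysome libraries set aside (66.6%) and 3 to 4 with 1 library left out (44.2 to 55.0%). No gene of the 9 passed for the difference between fractions under any setting, but 788 of all genes did with the 3 libraries set aside. Replicate numbers are shared by the groups, yet same-numbered libraries did not all deviate together (r from -0.50 to 0.46), and the main fits do not pair them. Between Polysome and Input, r ran from -0.07 to 0.18 in Ctrl and from -0.20 to 0.22 in siRNAG5. Both fractions came from the same cultures, and these correlations cannot exclude such a pairing. With the replicate block 4, 0, 5, 4 and 0 of 9 passed in the 5 comparisons. The shares of all genes there were 36.0%, 6.95%, 49.2%, 50.9% and 0%. The 1 call the block added was SMG8 in siRNAG5 (-0.62, adjusted p = 0.0332, edgeR). Over all genes, 5230 passed in Input and 2444 in the fit of 16. In Polysome 1170 passed, against 189 to 1540 with 1 library left out, 1766 without the filter, 2201 with offsets, 1990 with block and offsets, 2253 by DESeq2, 3414 with 3 libraries set aside and 3482 in the fit of 16, where 38.2% of them were higher against 49.6%.

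Among the 9 genes, signs turned only for values that had not passed. With length and GC offsets, log2 FC turned for SMG5 in Input (-0.076), UPF2 in Polysome (-0.012), SMG1 between fractions in Ctrl (-0.18), and UPF2 (-0.18) and SMG1 (-0.40, adjusted p = 0.0428, edgeR) in siRNAG5. With the replicate block and these offsets the values were -0.080, -0.026, -0.16, -0.20 and -0.40. With the 3 Polysome libraries set aside they turned for UPF3B (0.034) and SMG8 (0.13) in Polysome and UPF2 (0.085) in Ctrl. In the fit of all 16, UPF3B (-0.0025) and SMG1 (-0.039) turned in siRNAG5. With 1 library left out the ranges that crossed 0 were -0.054 to 0.088 for SMG5 in Input, -0.21 to 0.039 for SMG5, -0.28 to 0.084 for SMG8 and -0.30 to 0.070 for UPF3B in Polysome, -0.10 to 0.45 for SMG1 and -0.12 to 0.085 for UPF2 in Ctrl, -0.10 to 0.19 for SMG1 and -0.052 to 0.25 for UPF3B in siRNAG5, and -0.49 to 0.078 for the difference of SMG1. The cause was not tested.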
